A study of Homo sapiens with 2 samples.

Results

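The 10 genes described here are 8 S100 genes (S100A4, S100A6, S100A10, S100A11, S100A13, S100A14, S100A16 and S100P) and the annexin genes ANXA1 and ANXA2, out of 34237 genes with a named transcript. They were chosen by name with results of these data in view. Their values in the contrast of the 2 libraries are therefore a description, and no test was made of them. RNA was from HepG2, a human liver cancer line, carrying a cassette that expresses SAMD4B when doxycycline (Dox) is added. SAMD4B belongs to the Smaug family of RNA-binding proteins, first described in flies. One library came from cells of this line grown without Dox and 1 from cells grown with 1 µg/ml Dox for 48 h, so both carry the cassette. The RNA was polyadenylated RNA of cultures in EMEM with serum. The treatment note of both libraries names Dox, and the titles were taken to separate them. Whether the line is a clone or a pool is not given in the sources used here. No cells given Dox without the cassette were analysed here, so an effect of Dox and an effect of SAMD4B cannot be told apart. With 1 library per group there is no replicate, no spread between replicates and no p-value, and every difference is one between these 2 libraries.

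S100 proteins are small calcium-binding proteins of vertebrates, each with a pair of EF-hand loops, and most work as dimers. Calcium opens a surface on the dimer that binds partner proteins, and annexins are among the best known of these. Annexins bind negatively charged membrane lipids in the presence of calcium. S100A10 (p11) differs from its relatives in that it no longer needs calcium, and it joins ANXA2 in a heterotetramer at the plasma membrane. S100A11 binds ANXA1 in a comparable way. Several S100 genes lie side by side on chromosome 1, in a region that also holds the genes of the skin barrier.

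SAMD4B was at 47.5 TPM in the library without Dox and at 261 TPM in that with Dox (transcript abundance corrected for length and scaled to the same total in each library) and so was higher in the library labelled with Dox. Endogenous and cassette RNA were not separated. The defining genes of the line were present in both libraries. AFP was at 13406 and 12140 TPM, ALB at 445 and 407 TPM, and none of the 11 hepatocyte markers was listed at 0. Of 8 fibroblast and stromal markers, 6 were below 1 TPM in both libraries, and the list summed to 66.5 TPM without Dox and 44.3 with Dox, mostly ACTA2. Of 5 endothelial markers, 4 were below 1 TPM in both. The 7 blood markers summed to 21.8 and 20.7 TPM, with PTPRC, CD3E and HBB listed at 0 in both. The 4 biliary markers summed to 207 and 192 TPM, with KRT7 listed at 0 in both. The part of other cells in the S100 values was not tested. In bulk RNA, fewer cells that express a gene and less of its RNA per cell cannot be told apart. Read counts were not used here. Depth estimated from the steps of the low TPM values was 18284511 fragments without Dox and 23810300 with Dox, on transcripts of at least 600 nt.

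The DNA around the start sites of the members is shown first, so that members that were higher can be set beside members that were not. Each sequence below runs from 250 bases before to 50 bases after a RefSeq start (GRCh38.p14), 5′ to 3′ on the gene's own strand. Capitals mark matches on either strand to 4 words: TGANTCA (the AP-1 word), GGAATG (the TEAD word), TATAAA (the TATA word) and GGGCGG (the GC box). Overlapping matches to a word run together. The first 4 sequences belong to the members with the highest ratios of TPM plus 1. ANXA2 and S100P are the members that were lower with Dox. S100A3 is a neighbour of the members S100A4 and S100A6 that is described below.
S100A6, chr1:153535942-153536241, minus strand: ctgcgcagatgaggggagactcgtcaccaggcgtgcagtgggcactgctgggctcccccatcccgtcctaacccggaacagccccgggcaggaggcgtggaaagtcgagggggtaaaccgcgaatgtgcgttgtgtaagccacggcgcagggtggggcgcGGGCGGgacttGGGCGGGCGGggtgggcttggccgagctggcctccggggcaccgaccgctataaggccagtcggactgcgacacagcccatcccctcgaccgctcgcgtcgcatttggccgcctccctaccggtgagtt
ANXA1, chr9:73151615-73151914, plus strand: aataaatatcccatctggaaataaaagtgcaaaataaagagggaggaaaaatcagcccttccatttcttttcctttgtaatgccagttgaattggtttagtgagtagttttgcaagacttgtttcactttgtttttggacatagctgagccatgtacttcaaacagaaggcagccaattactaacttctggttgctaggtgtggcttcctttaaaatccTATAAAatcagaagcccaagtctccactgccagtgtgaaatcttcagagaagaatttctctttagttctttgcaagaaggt
S100A11, chr1:152036955-152037254, minus strand: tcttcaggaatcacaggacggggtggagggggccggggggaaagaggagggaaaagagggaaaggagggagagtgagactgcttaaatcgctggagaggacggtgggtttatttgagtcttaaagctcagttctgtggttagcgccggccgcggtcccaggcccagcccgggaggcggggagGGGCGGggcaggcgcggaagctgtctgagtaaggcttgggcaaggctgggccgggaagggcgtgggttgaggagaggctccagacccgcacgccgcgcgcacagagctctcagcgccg
S100A4, chr1:153545757-153546056, minus strand: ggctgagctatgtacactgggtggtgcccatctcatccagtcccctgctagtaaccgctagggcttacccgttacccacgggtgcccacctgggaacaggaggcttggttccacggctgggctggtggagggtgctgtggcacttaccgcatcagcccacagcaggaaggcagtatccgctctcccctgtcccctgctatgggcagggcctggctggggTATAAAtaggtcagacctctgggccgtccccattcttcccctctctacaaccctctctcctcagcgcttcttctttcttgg
ANXA2, chr15:60397937-60398236, minus strand: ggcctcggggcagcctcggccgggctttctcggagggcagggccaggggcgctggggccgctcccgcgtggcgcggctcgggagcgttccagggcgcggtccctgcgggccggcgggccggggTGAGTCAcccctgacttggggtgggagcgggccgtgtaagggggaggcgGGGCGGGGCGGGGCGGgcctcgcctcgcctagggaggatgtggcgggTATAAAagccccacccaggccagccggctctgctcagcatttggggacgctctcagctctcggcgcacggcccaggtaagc
S100P, chr4:6693628-6693927, plus strand: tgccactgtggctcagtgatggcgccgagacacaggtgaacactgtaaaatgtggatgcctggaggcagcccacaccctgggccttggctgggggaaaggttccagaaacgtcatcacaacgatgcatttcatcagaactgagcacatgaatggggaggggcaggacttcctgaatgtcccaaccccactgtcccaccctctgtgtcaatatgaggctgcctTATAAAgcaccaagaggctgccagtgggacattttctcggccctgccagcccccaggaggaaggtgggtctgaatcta
S100A3, chr1:153549209-153549508, minus strand: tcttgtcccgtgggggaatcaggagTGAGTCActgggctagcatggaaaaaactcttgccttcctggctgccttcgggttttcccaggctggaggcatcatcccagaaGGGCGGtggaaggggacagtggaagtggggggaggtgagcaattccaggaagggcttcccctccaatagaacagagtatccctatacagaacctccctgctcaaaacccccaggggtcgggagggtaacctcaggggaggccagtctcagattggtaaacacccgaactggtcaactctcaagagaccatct

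The 10 members had 13 such windows. TGANTCA was found in 1 of them, that of ANXA2, and in 7.71% of all 35116 windows. S100A3 holds the same letters. GGAATG was found in both windows of S100A16 and in no other member, against 14.03% of all windows. TATAAA was found in 5 of the 13 windows (1 each of ANXA1, ANXA2, S100A4, S100A13 and S100P), against 11.5% of all windows. It began 31 bases before the start in ANXA1, ANXA2 and S100A4, 29 before it in S100A13 and 28 before it in S100P. This S100A13 window holds the GENCODE 29 start of none of the S100A13 transcripts at 1 TPM or more. The ANXA2 window holds the start of ENST00000421017 but not of ENST00000557904, which held most of the gene's TPM. The S100P window does not hold the GENCODE 29 start of ENST00000296370, whose deposited version differs. GGGCGG was found in 6 of the 13 windows and in 45.0% of all windows, with 3 copies each in S100A6 and ANXA2. Among the windows of compared genes, 5.003% held TGANTCA, 11.4% GGAATG, 6.17% TATAAA and 66.2% GGGCGG. No word was common to the 4 members with the highest ratios: S100A6 and S100A11 had GGGCGG without TATAAA, and S100A4 and ANXA1 had TATAAA without GGGCGG. A match is a description of letters and not a site of binding.

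Without Dox the levels ran from 1.21 TPM for S100A14 to 1530 TPM for ANXA2 (the plot of levels by gene). In order of their level without Dox, ANXA2 came first, followed by S100A10, S100P, S100A11, S100A13, S100A4, S100A16, S100A6, ANXA1 and S100A14. With Dox the order was the same. With no replicates, whether neighbours in that order differ beyond their spread could not be assessed. All 10 members reached the minimum for comparison, a TPM of 1 on average over the libraries. On the scale log2((TPM with Dox + 1)/(TPM without Dox + 1)), 8 were higher with Dox and 2 lower, and 53.0% of the 11582 compared genes were higher. One member was at least 2-fold higher (background 1.62% of compared genes), 3 were at least 1.5-fold higher (background 5.32%) and none was at least 1.5-fold lower (background 3.90%). The members' median was 0.30 on the log2 scale, against 0.02 over all compared genes. Summed over the members, TPM was 2258 without Dox and 2252 with Dox, and ANXA2 alone held most of it.

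**Figure D1:**
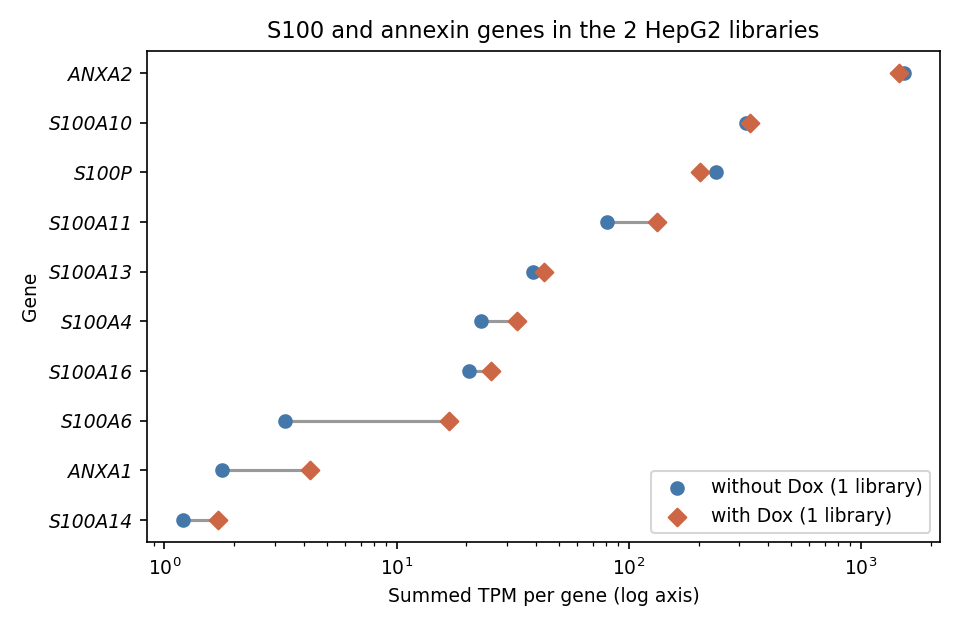
Summed TPM per gene (log axis) for the 10 genes in the library without Dox (circles) and the library with Dox (diamonds), 1 library each and so without error bars. The lines are longest for S100A6, at 3.32 and 16.8 TPM, and ANXA1, at 1.77 and 4.26 TPM, and both are among the least abundant members.

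S100A6 (ENSG00000197956; calcyclin), found in fibroblasts and epithelia that proliferate and a partner of CACYBP and of annexins, differed most. It lies on chromosome 1 from 153534599 to 153536244 on the minus strand (GRCh38, GENCODE release 29, as for all gene positions here). It was at 3.32 TPM in the library without Dox and at 16.8 TPM in that with Dox, a log2 ratio of 2.04 that ranked 42 among the 11582 compared genes. In estimated fragments it had 8 without Dox and 51 with Dox. Divided by depth, their ratio was 5.01, with a 95% interval (exact binomial, Clopper-Pearson) of 2.31 to 11.9. This interval and the others below cover counting error only. Both of its listed coding transcripts were higher with Dox: ENST00000368719 was at 3.08 and 14.7 TPM, and ENST00000496817 at 0.24 and 2.07 TPM. Its level in TPM was below that of S100A4 in both libraries. Its exons overlap those of BX470102.1 on the opposite strand. Whether the libraries keep strand is not given in the sources used here, so reads from the overlap cannot be told apart. The extent of the overlap was not computed.

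ANXA1 (ENSG00000135046; chromosome 9, 73151757 to 73170393, plus strand), the annexin known as an anti-inflammatory mediator, was at 1.77 TPM in the library without Dox and at 4.26 TPM in that with Dox. Its log2 ratio was 0.92. The estimated fragments were 29 and 88, with a ratio of 2.33 (interval 1.52 to 3.68). Nearly all of it lay on ENST00000257497, at 1.77 and 4.15 TPM. The ratio therefore passed 2 in fragments and not on the scale of TPM plus 1, which understates differences of genes at this level.

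S100A11 (ENSG00000163191; chromosome 1, 152032506 to 152047907, minus strand), a widely expressed member that binds ANXA1, was at 80.8 TPM in the library without Dox and at 133 TPM in that with Dox. Its log2 ratio was 0.71, and all of its TPM lay on ENST00000271638. With 327 and 659 estimated fragments the ratio was 1.55 (interval 1.35 to 1.77). Among the 4 most abundant members it was the 1 that was at least 1.5-fold higher. Of the 31-base words in its transcripts, 7.24% also occur in transcripts of other genes of the deposited table. These are the pseudogenes AC006483.1, which shares most of them, AC027667.1, S100A11P1 and S100A11P2, and all 4 were listed at 0 in both libraries.

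S100A4 (chromosome 1, 153543613 to 153550136, minus strand), also called metastasin and a partner of non-muscle myosin heavy chain, was at 23.0 TPM in the library without Dox and at 32.9 TPM in that with Dox. The log2 ratio was 0.50, just under 1.5-fold. In fragments, 80 and 145, the ratio was 1.38 (interval 1.05 to 1.85). Its main transcript ENST00000368716 was at 19.7 and 25.5 TPM. The coding transcript ENST00000354332 was at 0.95 and 4.47 TPM, and its share of the gene was 4.13% and 13.6%.

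The next 3 members, S100A13, S100A14 and S100A16, were listed higher with Dox. Their counting intervals on transcripts of at least 400 nt held 1. S100A13 (chromosome 1, 153618787 to 153631360), which takes part in the release of FGF1 and IL1A, proteins without a signal peptide, was at 38.6 TPM in the library without Dox and at 43.1 TPM in that with Dox (log2 ratio 0.15). Its fragment ratio was 1.16 (interval 0.96 to 1.40). On transcripts of at least 600 nt, with lengths from GENCODE, it was 1.29 (interval 1.03 to 1.60), which did not hold 1. Those transcripts held 63.1% of its TPM. S100A16 (chromosome 1, 153606886 to 153613145), a broadly expressed member, was at 20.5 and 25.5 TPM (log2 ratio 0.30, fragment ratio 1.13, interval 0.96 to 1.35). S100A14 (chromosome 1, 153614255 to 153616986), an epithelial member, was at 1.21 and 1.71 TPM (log2 ratio 0.30), from 13 and 24 estimated fragments (ratio 1.42, interval 0.69 to 3.03). A difference of this size could not be detected at this depth for S100A14.

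Within these genes the TPM was split differently among transcripts in the 2 libraries (the stacked plot of transcripts). In S100A13, ENST00000440685 was at 22.02 and 28.6 TPM, while ENST00000339556 was at 13.8 and 8.51 TPM. In S100A16, ENST00000368706 held 52.2% and 32.9% of the gene, and ENST00000368705 held 31.3% and 47.3%, at 6.42 and 12.04 TPM. ENST00000368705 begins within the window of a separate RefSeq start, nearer to the coding sequence. S100A14 was listed on ENST00000476873 alone without Dox and on ENST00000344616 alone with Dox. The transcripts of S100A13 at 1 TPM or more all have a coding sequence of 294 nt, those of S100A14 312 nt and those of S100A16 309 nt, so within each gene these transcripts differ outside the coding length. Salmon divides fragments that match several transcripts by estimation, so these splits are less certain than the gene sums. The exons of S100A13 overlap those of S100A1 on the opposite strand and those of AL162258.1 on the same strand, so reads from the overlaps cannot be told apart.

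**Figure D2:**
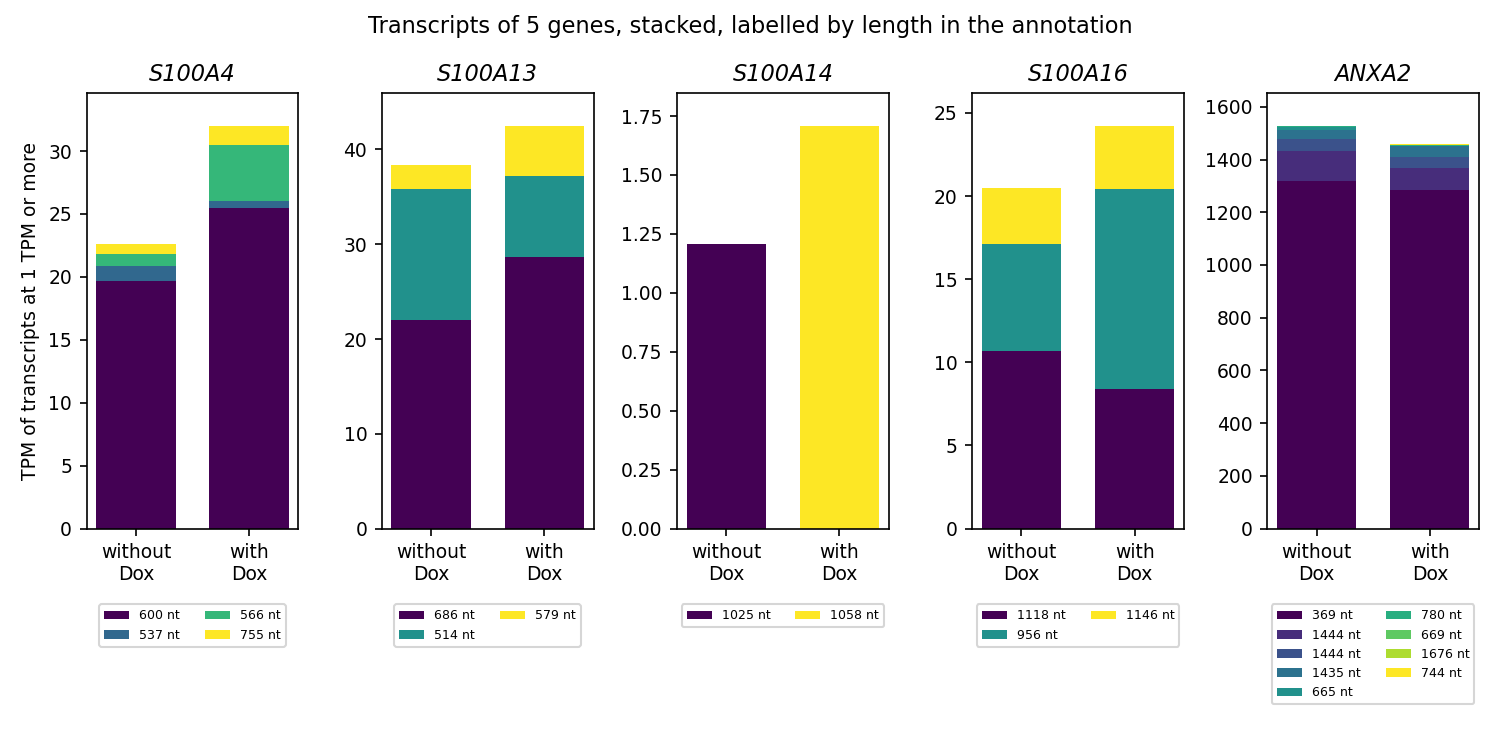
TPM of each transcript listed at 1 TPM or more in either library, stacked for 5 genes, without and with Dox (1 library each), with transcripts labelled by their GENCODE length. In ANXA2 the 369-nt transcript makes up 86.3% and 87.9% of the gene, and in S100A14 the 2 libraries are listed on different transcripts.

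S100A10, S100P and ANXA2 were the most abundant members, with log2 ratios between -0.23 and 0.05. S100A10 (chromosome 1, 151982915 to 151994390, minus strand), the partner of ANXA2, was at 320 TPM in the library without Dox and at 332 TPM in that with Dox, a log2 ratio of 0.05. Its fragment ratio was 0.99 (interval 0.93 to 1.05), so its direction depended on the scale. S100P (chromosome 4, 6693069 to 6697170, plus strand), a placental member that binds ezrin and is common in carcinomas, was at 238 and 203 TPM. Its log2 ratio was -0.23, and its 635 and 652 fragments gave a ratio of 0.79 (interval 0.71 to 0.88). It was the member with the lowest log2 ratio, and it is the 1 S100 member outside chromosome 1.

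ANXA2 (chromosome 15, 60347134 to 60402883, minus strand), which links membranes to actin and brings plasminogen to the cell surface, was at 1530 TPM in the library without Dox and at 1460 TPM in that with Dox, a log2 ratio of -0.07. Of this, 1320 and 1284 TPM lay on ENST00000557904, an annotated transcript of 369 nt with 4 exons. Of its bases, 256 in 1 run match the full-length transcript ENST00000421017 at bases 124 to 379, near its 5′ end. At 369 nt it is little longer than the offset of 300 nt that the low TPM values showed for fragment length. Each fragment on it therefore adds much to its TPM. Its own fragments were not estimated, because it is shorter than 400 nt. Of its 31-base words, 34.5% occur in other genes of the table. Over all ANXA2 transcripts, shared words lay mainly in the pseudogenes ANXA2P2, ANXA2P1 and ANXA2P3, which were listed at 0 in both libraries. Which genes share the words of the 369-nt transcript was not computed. Without this transcript ANXA2 was at 210 and 176 TPM. That moves its level by more than 1.5 times and puts it below S100A10 and S100P. Its transcripts of at least 400 nt held 3325 and 3666 estimated fragments, a ratio of 0.85 (interval 0.81 to 0.89). The full-length ENST00000421017 was at 111 and 85.4 TPM, ENST00000332680 at 46.4 and 39.9, and ENST00000451270 at 33.9 and 42.8.

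**Figure D3:**
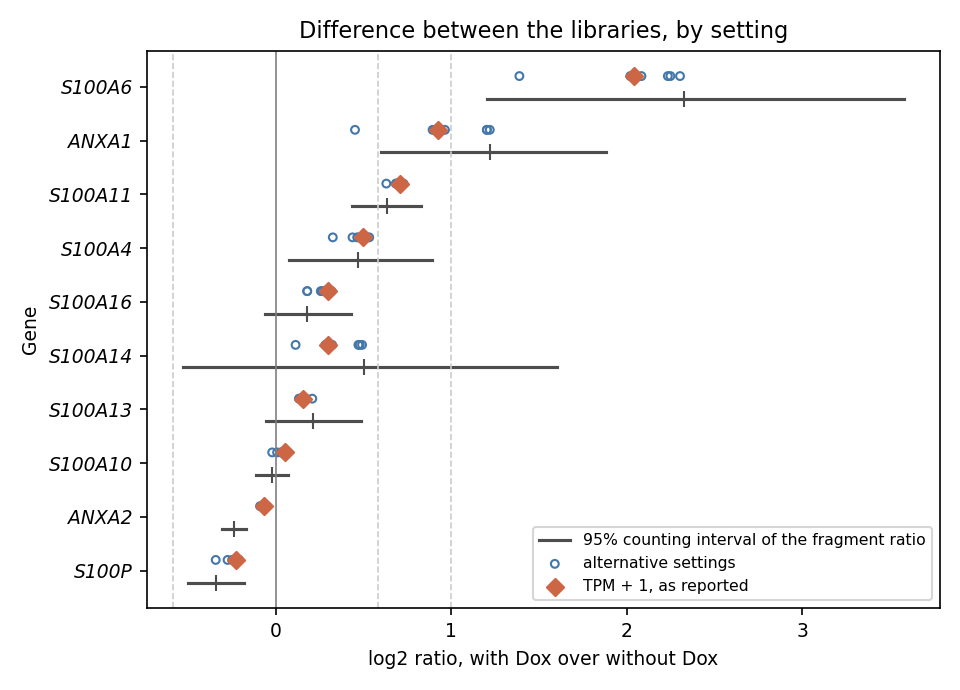
Log2 ratio with Dox over without Dox for each gene. Diamonds are on the scale of TPM plus 1, and open circles are the alternative settings. Bars are the 95% counting intervals in estimated fragments, for every gene on its transcripts of at least 400 nt. Dashed lines mark 1.5-fold lower, 1.5-fold higher and 2-fold higher. The bars of S100A6, ANXA1, S100A11 and S100A4 lie above 0, those of S100P and ANXA2 below 0, and those of the other 4 genes hold 0. The bar of ANXA2 covers transcripts with 12.9% of its TPM, while its diamond is for the whole gene. On transcripts of at least 600 nt (intervals not drawn), the interval of S100A4 held 0 and that of S100A13 lay above 0.

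The 2 libraries can also be read along chromosome 1, where 7 of the 8 S100 members lie. From S100A10 to S100A1 the region spans 1649 kb and holds 79 genes with a named transcript, 16 of them S100 genes of the lists used here. Of the 63 others, the genes of the skin barrier and S100A7L2 among them, none reached a mean of 1 TPM and 60 were listed at 0 in both libraries. Expression in this region was thus found at its ends, in the 9 S100 genes that reached the minimum. S100A8, S100A9, S100A12, S100A7 and S100A7A, which mark myeloid cells and keratinocytes, were listed at 0 in both libraries, as was S100A5.

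Side by side within 33.3 kb lie S100A6, S100A5, S100A4, S100A3 and S100A2. S100A3, which is no member and is known from hair cuticle, was at 0.61 TPM in the library without Dox and at 7.49 TPM in that with Dox, a log2 ratio of 2.40 and higher than that of any member. Its estimated fragments were 4 and 51 (ratio 9.92, interval 3.60 to 37.3). S100A2, an epithelial gene, was at 0.20 and 1.14 TPM, from 2 and 12 fragments (ratio 4.64, interval 1.03 to 42.4). It did not reach the minimum mean and was not compared. S100A6, S100A4, S100A3 and S100A2, all genes of the stretch but S100A5, were listed higher with Dox, as were 53.0% of all compared genes. That these genes were all higher was seen only after their values were known. For S100A4 the fragment interval on transcripts of at least 600 nt held 1 (0.96 to 1.64). After a gap of 39.0 kb follow S100A16, S100A14, S100A13 and S100A1 within 25.2 kb. Their log2 ratios were 0.30, 0.30, 0.15 and 0.05, and S100A1, a member of the family known from heart muscle, was at 121 and 125 TPM. No test of the difference between the stretches was made. An exon of no other gene overlaps those of S100A3 in the annotation, although the gene lies within the span of S100A4 on the same strand.

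**Figure D4:**
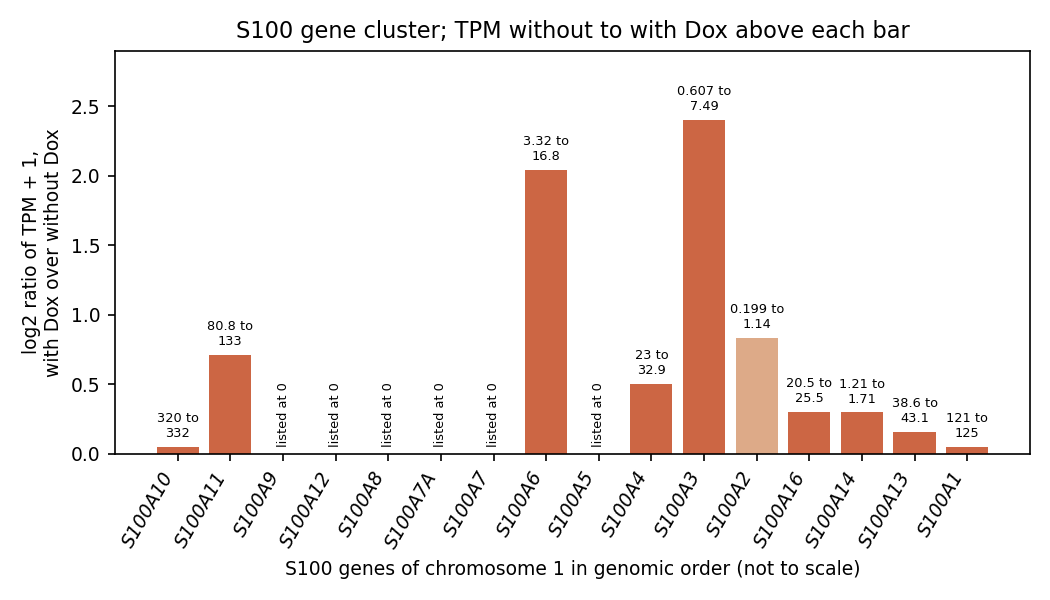
Log2 ratio of TPM plus 1, with Dox over without Dox, for the 16 chromosome 1 S100 genes of the lists used here. Genes are in genomic order (not to scale), with the TPM without and with Dox above each bar. The lighter bar (S100A2) is below a mean of 1 TPM, and genes listed at 0 in both libraries have no bar. The highest bars are S100A3 at 2.40 and S100A6 at 2.04.

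Of the other 12 S100 genes of the lists used here, S100A1 and S100A3 were compared and 7 were listed at 0 in both libraries. Of the other 11 annexins, 7 were compared. ANXA3, an annexin of neutrophils and of liver tumours, was at 7.64 TPM in the library without Dox and at 25.7 TPM in that with Dox, a log2 ratio of 1.63. Its 123 and 499 estimated fragments gave a ratio of 3.11 (interval 2.55 to 3.83). The other 6 were within 1.5-fold: ANXA4 had a log2 ratio of 0.22, ANXA5 0.15, ANXA9 0.10, ANXA11 0.05, ANXA7 -0.03 and ANXA6 -0.09. ANXA5, which binds exposed phosphatidylserine, was at 511 and 569 TPM and was the most abundant annexin once the 369-nt transcript of ANXA2 was set aside. By mean TPM, ANXA1 and ANXA3 were the least abundant of the 9 compared annexins, members included, and they had the highest ratios.

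The lists of partners were chosen with earlier results of these data known, and are described by counts. Of the 21 binding partners and receptors of S100 proteins and annexins, 15 were compared, with a median log2 ratio of 0.05. One was at least 1.5-fold higher (background 5.32% of all compared genes) and none at least 1.5-fold lower (background 3.90%). IQGAP1, a scaffold that binds S100P, was at 30.5 and 46.4 TPM (log2 ratio 0.59) and was the gene past 1.5-fold. In fragments its ratio was 1.29 (interval 1.23 to 1.35), below 1.5-fold. AHNAK, the giant scaffold that binds the S100A10 and ANXA2 complex, was at 51.8 and 65.1 TPM (0.33). MYH10, a non-muscle myosin heavy chain, was at 70.4 and 58.0 TPM (-0.28), and S100PBP, a nuclear partner of S100P, at 13.9 and 16.8 TPM (0.25).

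Cell-surface S100A10 and ANXA2 bring plasminogen and its activator together. Of the 11 genes of plasminogen activation, 8 were compared, with a median of 0.11. SERPINF2, which inhibits plasmin, had a log2 ratio of -0.17, CPB2 -0.12 and ENO1 0.11. PLG, PLAT and SERPINB2, named after their values were seen, had means below 1 TPM.

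Annexins and S100 proteins also take part in the repair of torn membranes. Of 15 genes of membrane repair, 12 were compared, with a median of 0.17. CAPN2, the large subunit of m-calpain, was at 11.96 and 20.3 TPM (0.71). It was the 1 gene at least 1.5-fold higher (background 5.32% of all compared genes). PDCD6IP (ALIX) had a log2 ratio of 0.29, CAPN1 -0.25 and TSG101 0.24. Of 31 other genes with EF-hand or related calcium-binding domains, 29 were compared, with a median of 0.09. One was at least 1.5-fold higher (background 5.32%) and none at least 1.5-fold lower (background 3.90%). STIM1, the calcium sensor of the endoplasmic reticulum, was at 30.3 and 47.8 TPM (0.64) and was the gene past 1.5-fold higher. In fragments its ratio was 1.15 (interval 1.07 to 1.24), below 1.5-fold. CALM3, 1 of the calmodulin genes, was at 394 and 264 TPM (-0.58), CIB1 at 51.1 and 34.2 (-0.56), and ACTN4 at 43.0 and 30.2 (-0.49). In fragments the ratio of CALM3 was 0.64 (interval 0.62 to 0.66) and that of CIB1 0.64 (interval 0.57 to 0.71), both past 1.5-fold lower, and that of ACTN4 was 0.68 (interval 0.62 to 0.76).

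Fly Smaug binds RNA hairpins whose loop begins with CNGG. The main transcript of each member was therefore searched for CNGG at the start of a loop of 4 to 7 nt closed by at least 5 pairs, with G-U pairs allowed. Such hairpins are common: 71.3% of the 11582 main transcripts hold at least 1. None was found in S100A4, S100A6, S100A11, ANXA1 or the short ANXA2 transcript. Among transcripts within 10% of their lengths, the share with at least 1 was 31.7% for S100A4, 36.9% for S100A6, 31.2% for S100A11, 64.5% for ANXA1 and 19.8% for the short ANXA2 transcript. S100A13, S100A14 and S100A16 held 2 each, where 38.1%, 55.7% and 54.4% of transcripts of like length held at least 1. Those of S100A10 (2) and S100P (1) lie outside the bounds of the RefSeq gene, in 5′ sequence of transcripts whose deposited versions differ from GENCODE 29. One hairpin of each of the 3 genes is shown because these are the members with a match inside those bounds, with the first 4 bases of the loop in capitals.
S100A13: gggacaCTGGatgtctt
S100A14: ggagttCAGGagtttc
S100A16: ctctgCTGGgtagag
For the members without a match, this says only that these letters are not in these transcripts.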

How the data were processed

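The authors deposited 1 table of TPM for 184844 transcripts in 2 libraries, made from polyadenylated RNA. Trimmomatic and Salmon are the tools and GRCh38.p13 the build named, per the submitters' processing notes. For the versions, options, annotation and strand setting, nothing is given in the sources used here.

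Transcripts were matched by identifier to GENCODE release 29 (GRCh38), which gave 161798 transcripts with 93.3% of the TPM in each library. A gene's TPM is the sum of its matched transcripts, so a part held by the 23046 unmatched transcripts is missing. Genes with a mean of at least 1 TPM were compared by the log2 ratio of TPM + 1. The members and every other list were chosen with earlier results of these data known. The named genes are all members, the S100 genes and annexins with a mean of at least 1 TPM, and up to 4 genes of each partner list with the largest absolute log2 ratio at a mean of at least 5 TPM. S100A2 and the genes listed at 0 fall outside that rule and were named after their values were seen.

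TPM keeps no depth. Low values fell on steps set by transcript length, and fragments were estimated from these steps. For transcripts of 600 nt or more, 86.3% of low values in each library lay within 0.1 of a whole fragment. In the fit for shorter transcripts the share was 79.7% without Dox and 80.8% with Dox. For transcripts whose version differs from GENCODE 29, lengths were trimmed to the RefSeq gene, which gave shares of 81.7% and 89.4%. With untrimmed lengths the shares were 59.6% and 67.3%. Depth was estimated with untrimmed lengths, and every fragment ratio was divided by that depth. Depth from trimmed lengths was not estimated. Unless stated, fragment ratios are for transcripts of at least 400 nt, a length chosen after seeing the data. They have 95% exact binomial intervals for counting error only. The fit for transcripts of 600 nt or more was tested on simulated data. The fit for shorter transcripts and the trimming of lengths were not tested in this way. Python 3.11.15 with numpy 2.4.6, pandas 2.3.3, scipy 1.17.1 and matplotlib 3.10.9 was used. Alternatives were other pseudocounts and minimums, coding transcripts only, rescaling, and fragments. Another left out transcripts at 0 in 1 library and at least 1 TPM in the other. Some genes of the partner lists that met the rule for naming are not reported here.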

Additional observations from a re-analysis of the deposited data

How the results depend on the processing

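The count of members at least 2-fold higher was 1 in TPM and 2, with ANXA1 joining S100A6, with a pseudocount of 0.1, with fragments on transcripts of at least 600 nt, and with fragments on transcripts of at least 400 nt with trimmed lengths, an alternative chosen after seeing the data. Over all compared genes, the count at least 2-fold higher was 188. It was 296 with a pseudocount of 0.1, 55 with a pseudocount of 5 and 71 with a minimum mean TPM of 5. Without transcripts at 0 in 1 library and at least 1 TPM in the other, it was 120. The count at least 1.5-fold higher was 616, against 344 with the minimum of 5 and 235 with the pseudocount of 5. The count at least 1.5-fold lower was 452, against 262 and 174. A minimum of 5 tests fewer genes and leaves out ANXA1 and S100A14. The causes of the other shifts were not tested. The members at least 1.5-fold lower numbered 0 in every setting run. Those at least 1.5-fold higher numbered 3 in TPM and 2 in 3 settings: with the pseudocount of 5, where ANXA1 was under 1.5-fold, with the minimum of 5, which leaves it out, and with fragments on transcripts of at least 600 nt, which leave out S100A11. The members' median log2 ratio ranged from 0.20 to 0.46. The log2 ratio of S100A6 ranged from 1.39 to 2.30, that of ANXA1 from 0.45 to 1.22 and that of S100A11 from 0.63 to 0.73, while that of S100A10 ranged from -0.02 to 0.07 and so had no fixed sign. The setting of fragments on transcripts of at least 600 nt left out S100A11, S100A13 and ANXA2, which have less than 80% of their TPM on such transcripts. With 1 library per group no library could be left out. No paired analysis was possible because each group has 1 library. Depth limits S100A6, S100A14, S100A2 and S100A3, with at most 13 fragments each without Dox on transcripts of at least 400 nt. Such counts depended on the lengths used. On transcripts of at least 600 nt with untrimmed lengths, S100A6 had 18 without and 113 with Dox (ratio 4.81, interval 2.92 to 8.43). S100P had 3451 and 3714 (ratio 0.83, interval 0.79 to 0.87), against 635 and 652. The counts of S100A14 and S100A16 did not move.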

Other observations

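The 4 myosin light chain genes of the EF-hand list, picked out after their values were seen, were all listed higher with Dox. Of all compared genes, 53.0% were higher. MYL12A was at 342 TPM without and 475 TPM with Dox (log2 ratio 0.47) and, in the same order, MYL9 at 86.3 and 117 TPM (0.43). MYL6 was at 848 and 1017 TPM (0.26) and MYL12B at 249 and 280 TPM (0.17). With 1 library per group none of these differences has a replicate check.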
